A study of Caenorhabditis elegans with 6 samples.

Results

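Alpha- and beta-tubulin transcripts were followed on Affymetrix arrays of whole Caenorhabditis elegans worms. The members were the probe sets to which the platform annotation gives a single symbol out of tba-1, tba-2, tba-4, tbb-1, tbb-2, tbb-4, mec-7 and mec-12. All 8 genes were found, with 11 of the 22548 tested probe sets. They were 3 for tba-2, 2 for mec-7 and 1 for each of the other 6 genes. Every worm was of the wild-type strain N2, reared at 20 °C, matched in age and at the third larval stage (L3) when the experiment began. The Au-NP group spent 12 h in 50% K-medium, a dilute salt solution, with 5.9 mg/L of citrate-coated gold particles 4 nm across. The labels call this concentration the LC10. The medium was then changed for particle-free 50% K-medium for another 12 h before RNA was taken, and about 2000 worms made up a replicate. The other group carries the label control and no other treatment label. The same 12 h and 12 h, 50% K-medium and about 2000 worms are recorded for it, with no particle size or concentration. Each group had 3 arrays, and the labels do not say that the 3 came from separate cultures, so p-values measure the spread between these samples, which may be technical. The comparison asks which tubulin transcripts differed between exposed and control worms after that recovery.

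Alpha- and beta-tubulin form the dimers from which microtubules are built, and microtubules make up spindles, axonal tracks and the cores of sensory cilia. The worm has several genes of each kind with different sites of use. The alpha-tubulins TBA-1 and TBA-2 and the beta-tubulins TBB-1 and TBB-2 serve widely, including in the germ line and in the spindles of the early embryo, where the members of each pair can largely stand in for each other. TBA-4 is another widely made alpha-tubulin. TBB-4 is a beta-tubulin of ciliated sensory neurons. MEC-12 (alpha) and MEC-7 (beta) build the unusually wide microtubules of the touch receptor neurons, and both genes are known for mutants that fail to respond to gentle touch.

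Values are log2 signals summarised by RMA (robust multi-array average), and array medians lay between 7.03 and 7.09. With 3 arrays a group, precision is limited by their number. Over all probe sets Au-NP replicate 3 correlated less well with its group, with Pearson's r of 0.988 and 0.990 to the other Au-NP arrays against 0.997 between those 2. Its r with control replicates 1 to 3 was 0.990, 0.987 and 0.989, so by this measure it was about as near to the controls as to its own group. Results are given without Au-NP replicate 3 where it moves them. Direction follows the array labels throughout, so "lower" means lower in arrays labelled Au-NP. For the abu and pqn genes, which are not treated here, the labels give the reverse of what the study's publication is recalled to state. The recollection could not be checked here and may be wrong. If the labels were exchanged, each direction given here would be reversed, and this was not tested.

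The 4 widely used tubulin genes tba-1, tba-2, tbb-1 and tbb-2 were lower in the Au-NP arrays, by 0.45 to 0.77 on the log2 scale (1.37-fold to 1.70-fold). The remaining 4 genes, tba-4, tbb-4, mec-7 and mec-12, did not pass the test. By limma with Benjamini-Hochberg adjustment over all tested probe sets, 6 of the 11 tubulin probe sets were lower at the threshold of 0.05 and 0 were higher. None was higher at an unadjusted limma p under 0.05 either. Of all tested probe sets 5.68% were lower and 6.24% were higher at the same threshold. Among the 5184 probe sets with a mean signal above 9, as all 7 general tubulin probe sets had, 9.28% were lower. The same 6 tubulin probe sets had all 3 Au-NP values below all 3 control values, as 11.6% of all probe sets did. In the other 5 the groups overlapped.

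**Figure D1:**
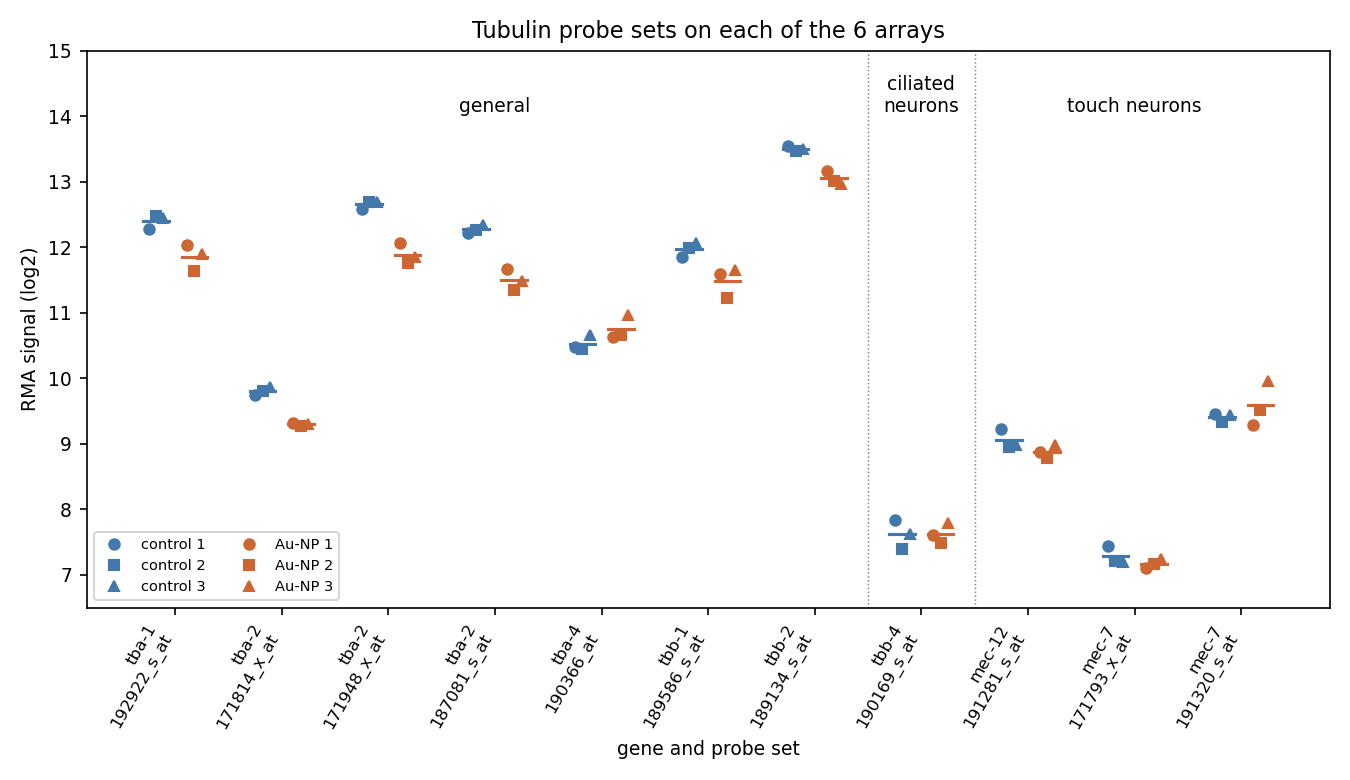
RMA signal (log2) of each tubulin probe set on the 3 control (blue) and 3 Au-NP (orange) arrays, with marker shape for the replicate number and a short line for each group mean. The groups are apart in 6 of the 7 general tubulin probe sets and overlap for tba-4, tbb-4, mec-12 and both mec-7 probe sets.

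Among the alpha-tubulins, tba-2 was measured by 3 probe sets. Its brightest probe set, 171948_x_at, read 12.59, 12.69 and 12.69 in control replicates 1 to 3 and 12.06, 11.75 and 11.86 in Au-NP replicates 1 to 3. Every Au-NP array thus lay at least 0.53 below the lowest control, and Au-NP replicate 2 was the lowest. The group means were 12.66 ± 0.06 (SD, n = 3) and 11.89 ± 0.16, a log2 difference of -0.77 ± 0.10 (SE), or 1.70-fold lower, with a limma adjusted p of 0.00635. Probe set 187081_s_at gave nearly the same, with 12.21, 12.26 and 12.34 in the controls, 11.67, 11.35 and 11.49 in the Au-NP arrays, and a difference of -0.77 ± 0.10 (limma adjusted p = 0.00641). The dimmest of the 3, 171814_x_at, read 9.75, 9.80 and 9.87 in the controls and 9.32, 9.27 and 9.31 in the Au-NP arrays. Its difference was smaller, -0.51 ± 0.07 (limma adjusted p = 0.00854), and its Au-NP values spread by only 0.03 (SD). All 3 probe sets of tba-2 kept their call under each of the 13 alternative settings, the removal of each array in turn among them.

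The partner gene tba-1 read 12.27, 12.48 and 12.45 in control replicates 1 to 3 and 12.04, 11.63 and 11.90 in Au-NP replicates 1 to 3. The groups did not overlap, although Au-NP replicate 1 came within 0.23 of control replicate 1. The means were 12.40 ± 0.11 (SD, n = 3) and 11.86 ± 0.21, a log2 difference of -0.54 ± 0.12 (SE) or 1.46-fold (limma adjusted p = 0.0294). The third alpha-tubulin of wide use, tba-4, read 10.48, 10.45 and 10.65 in the controls and 10.62, 10.66 and 10.97 in the Au-NP arrays. Au-NP replicates 2 and 3 lay above all controls, replicate 2 by less than the second decimal shows, and replicate 1 lay below control replicate 3, so the groups overlapped. The difference was 0.22 ± 0.11 (limma adjusted p = 0.277), with a 95% interval from -0.05 to 0.49 that holds none of the falls measured for tba-1 or tba-2. Without Au-NP replicate 3 the tba-4 difference was 0.11.

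Both beta-tubulins of wide use fell as well. The tbb-2 probe set, whose protein is a preferred substrate of the microtubule-severing enzyme katanin in the early embryo, read 13.54, 13.47 and 13.49 in the controls and 13.17, 13.02 and 12.97 in the Au-NP arrays. The controls lay within a narrow band, and the nearest Au-NP array was 0.30 below it. The means were 13.50 ± 0.04 (SD, n = 3) and 13.05 ± 0.10, a log2 difference of -0.45 ± 0.08 (SE) or 1.37-fold (limma adjusted p = 0.0159). The tbb-1 probe set read 11.86, 11.99 and 12.06 in the controls and 11.59, 11.23 and 11.65 in the Au-NP arrays. Here Au-NP replicate 2 lay well below the other Au-NP arrays, and the groups were 0.21 apart at the nearest. The difference was -0.48 ± 0.12, or 1.39-fold, and lay just inside the threshold (limma adjusted p = 0.0487).

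The calls of tba-1, tbb-1 and tbb-2 depended on single arrays. Without control replicates 1, 2 or 3 or Au-NP replicate 2, in turn, 3 tubulin probe sets remained lower, namely those of tba-2, and without Au-NP replicate 1 tbb-1 was lost and 5 remained. Over these removals and that of Au-NP replicate 3, which left all 6 calls in place, the tba-1 difference ran from -0.64 to -0.43 and its limma adjusted p reached 0.102. The range was -0.56 to -0.35 with an adjusted p up to 0.152 for tbb-1, and -0.51 to -0.41 with an adjusted p up to 0.0762 for tbb-2. Over all probe sets the count of lower ones went from 1281 to 557, 640 and 533 without control replicates 1 to 3, to 1118 and 410 without Au-NP replicates 1 and 2, and up to 1953 without Au-NP replicate 3.

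The tubulin of ciliated neurons, tbb-4, read 7.84, 7.40 and 7.62 in the controls and 7.60, 7.49 and 7.79 in the Au-NP arrays. All 3 Au-NP values lay inside the range of the controls. The log2 difference was 0.01 ± 0.13 (SE, limma adjusted p = 0.983), with a 95% interval from -0.30 to 0.31.

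Of the touch-neuron tubulins, mec-12 read 9.23, 8.95 and 8.98 in the controls and 8.88, 8.78 and 8.98 in the Au-NP arrays. Control replicate 1 was the highest, and Au-NP replicate 3 overlapped the other controls. The log2 difference was -0.18 ± 0.10 (SE, limma adjusted p = 0.345), with a 95% interval from -0.41 to 0.06, and it was -0.09 without control replicate 1. The mec-7 probe sets gave values of opposite sign, neither past the threshold. The brighter, 191320_s_at, read 9.46, 9.34 and 9.44 in the controls and 9.29, 9.51 and 9.96 in the Au-NP arrays, where replicate 3 was the highest of the 6 arrays and replicate 1 the lowest. Its difference was 0.17 ± 0.16 (limma adjusted p = 0.582, 95% interval -0.20 to 0.55), and it was -0.01 without Au-NP replicate 3. The dimmer, 171793_x_at, read 7.44, 7.22 and 7.19 in the controls and 7.11, 7.16 and 7.24 in the Au-NP arrays, a difference of -0.11 ± 0.09 (limma adjusted p = 0.516, 95% interval -0.33 to 0.10), which was -0.04 without control replicate 1.

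For the 5 probe sets that did not pass, the lower ends of the 95% intervals lay between -0.41 and -0.05. All of these ends lay above -0.45, the smallest fall among the 6 that passed, but the intervals of tbb-4, mec-12 and the dimmer mec-7 probe set overlapped those of tba-1, tbb-1 and tbb-2. The interval of mec-12 also overlapped that of the dimmest tba-2 probe set, and the interval of the brighter mec-7 probe set overlapped that of tbb-1.

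**Figure D2:**
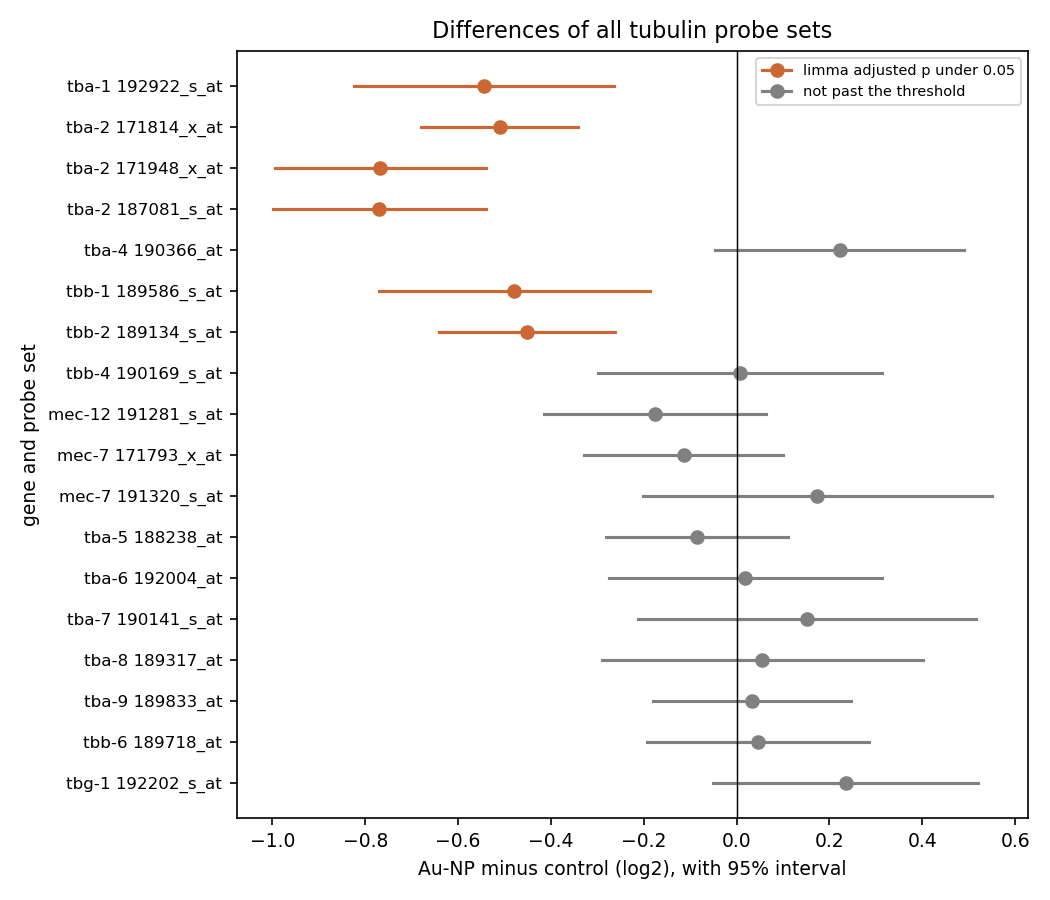
Au-NP minus control on the log2 scale for the 11 member probe sets and the 7 probe sets of other tubulin genes, each with its 95% interval from the limma fit. The 6 orange probe sets, of tba-1, tba-2, tbb-1 and tbb-2, lie between -0.77 and -0.45, and the grey ones lie between -0.18 and 0.23 and did not pass an adjusted p of 0.05.

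General and touch-neuron tubulins were set against each other within each array. The mean of the 5 general genes minus the mean of mec-7 and mec-12, with the brightest probe set of each gene, was 2.80, 3.07 and 3.06 in control replicates 1 to 3. It was 2.81, 2.51 and 2.40 in Au-NP replicates 1 to 3. Au-NP replicate 1 lay level with control replicate 1, so the groups overlapped, while the other 2 Au-NP arrays lay below all controls. The group means of 2.98 ± 0.15 (SD, n = 3) and 2.57 ± 0.21 differ by -0.40. No test was made of this score, since its members were chosen with results known. The absolute size of such a difference depends on the probes and has no meaning of its own, and only its shift between arrays is read here.

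Single pairs of genes were chosen after their values were seen and are therefore described without a test. The pairs with tba-4, tbb-4, mec-7 or mec-12 set a gene called lower against one that was not. A shift without overlap in these pairs largely follows from those calls and is no separate result. The difference tba-2 minus tba-4 was 2.11, 2.25 and 2.04 in the controls and lay between 0.89 and 1.44 in the Au-NP arrays, a shift of -0.99 with no overlap. For tbb-2 minus mec-7 the shift was -0.63 with the brighter mec-7 probe set and -0.34 with the dimmer one, for tba-2 minus mec-12 it was -0.59, and for tbb-2 minus tbb-4 it was -0.46. The groups did not overlap in any of these 4. Within the general tubulins, the brightest tba-2 probe set fell further than tba-1 in each Au-NP array, with a within-array difference of 0.31, 0.22 and 0.24 in the controls and 0.02, 0.12 and -0.04 in the Au-NP arrays. This did not hold for the dimmest tba-2 probe set, which fell by 0.54 and 0.50 in Au-NP replicates 2 and 3, where tba-1 fell by 0.77 and 0.50, and whose difference between the groups (-0.51) was no larger than that of tba-1 (-0.54). The balance of tbb-1 to tbb-2 overlapped between the groups, with a shift of -0.03. That of tba-1 to tbb-1 also overlapped, with a shift of -0.07.

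**Figure D3:**
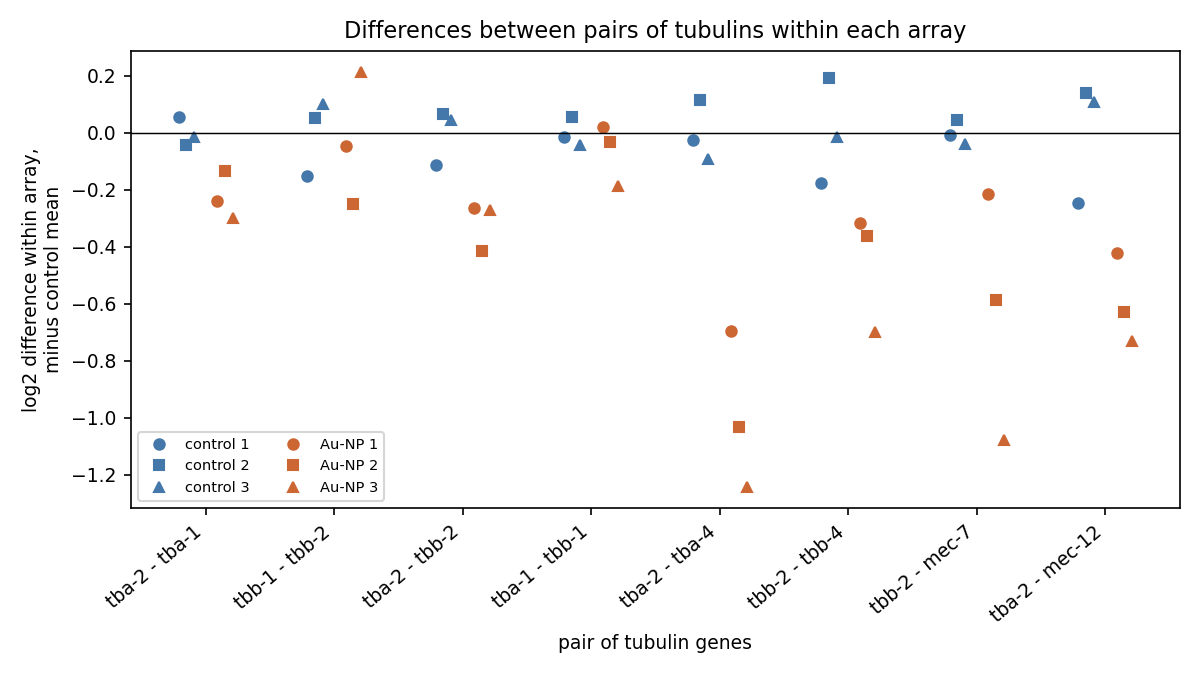
Log2 difference between 2 tubulin genes within each array, minus its mean over the controls, for 8 pairs and 6 arrays (control blue, Au-NP orange, marker shape for the replicate number). The largest shift among these pairs is that of tba-2 against tba-4, at -0.99, and the groups overlap for tbb-1 against tbb-2 and for tba-1 against tbb-1.

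The 4 genes that fell did not rank the Au-NP arrays alike. Against the control mean, tba-1, tba-2 and tbb-1 were lowest in Au-NP replicate 2, at -0.77, -0.90 and -0.74, and tbb-2 was lowest in Au-NP replicate 3, at -0.53. Au-NP replicate 1 showed the smallest fall for tba-1, tba-2 and tbb-2, at -0.36, -0.60 and -0.33. Au-NP replicate 3, the array apart from its group over all probe sets, was within the range of the other Au-NP arrays for tba-1 and tba-2. It was the highest of the Au-NP arrays for tbb-1, tba-4, tbb-4, mec-12 and mec-7.

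Genes with the most similar pattern to tbb-2 over the 6 arrays were cah-6, R02F2.1, atp-1, tsr-1 and meic-1, with Pearson's r from 0.997 to 0.999. These values are a description over 6 arrays of 2 groups, so a shared difference between the groups is enough to raise r, and 1173 probe sets had r above 0.9. Of the 5, cah-6 differed by only -0.16 ± 0.07 (SE, limma adjusted p = 0.188). The gene atp-1 fell by 0.44, R02F2.1 by 0.72, tsr-1 by 0.54 and meic-1 by 0.83 (limma adjusted p from 0.00826 to 0.0162). For mec-7, with its brighter probe set, the nearest were ent-7, gas-1, F32H2.6, plpp-1.2 and cpr-9, with r from 0.991 to 0.995 over the same 6 arrays. None of these 5 passed (limma adjusted p from 0.534 to 0.722), and as for mec-7 their highest value was in Au-NP replicate 3.

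Of the 11 member probe sets 10 carry a suffix that marks probes shared between transcripts or possible cross-hybridization (7 with _s_at, 3 with _x_at), against 29.8% of all tested probe sets. Only the tba-4 probe set has neither. Tubulin genes are similar in their coding sequence, so signals of related genes may be partly shared, and the values of tba-1 and tba-2, and of tbb-1 and tbb-2, are uncertain to that extent. The tbb-4, mec-7 and mec-12 probe sets carry these suffixes too. Their values, and the comparison of general with touch-neuron tubulins, are uncertain in the same way. How much was shared was not tested. No probe or protein sequence was used here.

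The tubulin genes outside the members showed no call. None of the 7, tba-5, tba-6, tba-7, tba-8, tba-9, tbb-6 and tbg-1, passed in either direction, and their median log2 difference was 0.05 against 0.03 over all tested probe sets. Over all 17118 named genes, 4.94% had a probe set that was lower and 7.49% one that was higher. The list counts below are to be read beside these shares. The smallest p of the 7 was that of tbg-1, the gamma-tubulin that starts new microtubules at the centrosome. It read 9.51, 9.88 and 9.96 in the controls and 9.98, 10.04 and 10.02 in the Au-NP arrays, all 3 above the controls, as in 19.2% of all probe sets. Its log2 difference was 0.23 ± 0.12 (SE, limma adjusted p = 0.282), and 0.098 without control replicate 1, the lowest array (limma adjusted p = 0.554).

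Regulators of microtubules had lower members and no higher ones. Of 21 measured genes 9 fell and 0 rose, with a median of -0.24 over the list, and without control replicate 3 or Au-NP replicate 2 the count was 5 and 4. The largest falls were those of maph-1.1, maph-1.2 and maph-1.3, which encode closely related microtubule-associated proteins, and their probe sets carry the suffixes of shared probes. The maph-1.1 probe set read 10.33, 10.23 and 10.19 in the controls and 9.01, 8.56 and 8.67 in the Au-NP arrays, so that it was lower by a log2 difference of -1.50 ± 0.12 (SE, limma adjusted p = 0.0025). The values for maph-1.2 and maph-1.3 were -1.34 ± 0.11 and -1.22 ± 0.13. The depolymerising kinesin gene klp-7 fell by 0.98 ± 0.12 (limma adjusted p = 0.00577). Outside the naming rule, and listed after their values were seen, the remaining genes that fell were lis-1, cls-2, zyg-8, zyg-9 and spd-1, which act in dynein regulation, microtubule growth and the spindle. For zyg-9 and spd-1 only a dimmer probe set passed. Their brightest gave -0.20 ± 0.14 and -0.37 ± 0.11 (limma adjusted p = 0.439 and 0.0727). The gene ptl-1, a tau-like protein abundant in touch neurons, had 4 probe sets between -0.07 and 0.21, none past the threshold.

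Tubulin folding needs the prefoldin complex, the CCT chaperonin and tubulin cofactors. Of 19 such genes 1 fell and 2 rose, with a median of 0.12. The chaperonin subunit gene cct-7 fell by 0.55 ± 0.12 (SE, limma adjusted p = 0.0267), and the prefoldin genes pfd-6 and pfd-1 rose by 0.49 ± 0.09 and 0.36 ± 0.07 (limma adjusted p = 0.0182 and 0.0255). Without control replicate 2, control replicate 3 or Au-NP replicate 2, in turn, 0 folding genes fell and 0 rose, and without Au-NP replicate 3 it was 2 and 3. Of 10 genes for enzymes that modify tubulin 0 fell and 1 rose, the tubulin tyrosine ligase-like gene ttll-5, by 0.42 ± 0.08 (limma adjusted p = 0.0179), a call that had a limma adjusted p from 0.0614 to 0.0703 without control replicate 1, control replicate 3 or Au-NP replicate 2. The touch-neuron tubulin acetyltransferase gene mec-17 had 0.36 ± 0.10 and did not pass (limma adjusted p = 0.0588).

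Markers of the cells that use these tubulins were measured on the same arrays. In whole worms, fewer cells of a type and less RNA per cell cannot be told apart. Of 16 touch-neuron genes 0 fell and 1 rose, alr-1, a homeobox gene, at 0.31 ± 0.07 (SE, limma adjusted p = 0.0373), and their median was 0.19. Of all named genes 7.49% had a probe set that was higher. The other alr-1 probe set gave 0.22 ± 0.14 (limma adjusted p = 0.379), with overlapping groups. The alr-1 call was lost without any one of the 6 arrays other than Au-NP replicate 3 (limma adjusted p from 0.0813 to 0.139), with the replicate block (0.0737), with trended and robust variances (0.0697) and with the correction for gene span (0.0622). The log2 of the summed signal of the touch-neuron genes was 11.8 to 12.0 in the controls and 12.1 on each Au-NP array. The list had differences of either sign. Its brightest mec-5 probe set gave -0.34 ± 0.12 (limma adjusted p = 0.123), with all 3 Au-NP values below the controls. These genes were listed for their part in touch neurons and need not be made only there. Of 29 ciliated-neuron genes 1 fell and 0 rose, with a median of 0.04. It was klp-20, a kinesin subunit of cilium transport, at -1.03 ± 0.18 (limma adjusted p = 0.0146) by one probe set and -0.36 ± 0.09 (limma adjusted p = 0.0399) by the other, and 0 fell without control replicate 1, control replicate 3 or Au-NP replicate 2. Among 14 genes used throughout the nervous system 1 fell, egl-3, a neuropeptide-processing protease gene, at -0.61 ± 0.14, and 1 rose, unc-119, at 0.38 ± 0.08. Both counts were 0 without control replicate 2, control replicate 3 or Au-NP replicate 2.

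Some germ-line markers were also lower. Of 16 measured 8 fell, 0 rose and 8 did not pass, with a median of -0.62, and without control replicate 3 or Au-NP replicate 2 the count was 5 in both cases. Those with the smallest p were cgh-1 at -0.87 ± 0.08 (SE) and car-1 at -1.80 ± 0.17, which act in germ-line RNA granules, glh-1, a Vasa-like helicase gene, at -0.99 ± 0.13, and gld-1, a translational repressor gene, at -1.15 ± 0.16 (limma adjusted p from 0.00272 to 0.00847). These values are of each gene's probe set with the smallest p. The brightest car-1 probe set gave a smaller fall, -0.95 ± 0.16, and the brightest gld-1 probe set a larger one, -1.71 ± 0.27 (limma adjusted p = 0.0135 and 0.0113). The log2 of the list's summed signal was 13.5 to 13.7 in the controls and 13.16, 12.86 and 12.69 in Au-NP replicates 1 to 3. For the general tubulins it was 14.8 to 14.9 in the controls and 14.45, 14.21 and 14.34 in Au-NP replicates 1 to 3. In both lists Au-NP replicate 1 was nearest to the controls. The lowest array was replicate 3 for the summed germ-line markers. It was replicate 2 for the summed general tubulins, microtubule regulators and body-wall muscle markers, although tbb-2 by itself was lowest in Au-NP replicate 3. The lowest value of any germ-line marker on any array was 5.65, where the lowest value of any probe set was 3.44. The part of these markers in the tubulin values was not tested.

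Markers of other tissues also differed. Of 9 body-wall muscle genes 6 fell and 0 rose, with a median of -0.41, among them unc-54, a myosin heavy chain gene, at -0.97 ± 0.13 (SE), lev-11, the tropomyosin gene, at -0.86 ± 0.12, unc-89 at -0.76 ± 0.07 and unc-15, the paramyosin gene, at -0.69 ± 0.09. These values are of each gene's probe set with the smallest p. The lev-11 probe sets ran from -0.86 to -0.03, and most did not pass. Its brightest gave -0.22 ± 0.10 (limma adjusted p = 0.204). Other unc-89 probe sets ran from -1.06 ± 0.18, which passed, to -0.08 ± 0.12, which did not (limma adjusted p = 0.014 and 0.768). The log2 summed signal of the muscle genes was 15.8 to 15.9 in the controls and 15.4 to 15.6 in the Au-NP arrays. Of 6 sperm markers 0 fell and 0 rose, with the smallest p for fer-1 at -0.20 ± 0.14 (limma adjusted p = 0.443). Of 6 intestinal markers 1 fell, the actin gene act-5 of the gut brush border, at -0.85 ± 0.15, a call lost without control replicate 1, control replicate 3 or Au-NP replicate 2. Of 7 hypodermal markers 1 fell, nhr-23 at -0.58 ± 0.11, and 1 rose, elt-3 at 0.47 ± 0.10, with a list median of -0.24. Both calls were lost without any one control or Au-NP replicate 2. The other probe sets of these 2 genes did not pass. The brighter elt-3 probe set gave 0.42 ± 0.12 and the dimmer nhr-23 probe set -0.19 ± 0.08 (limma adjusted p = 0.0567 and 0.211). The part of these other tissues in the tubulin values was not tested either.

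**Figure D4:**
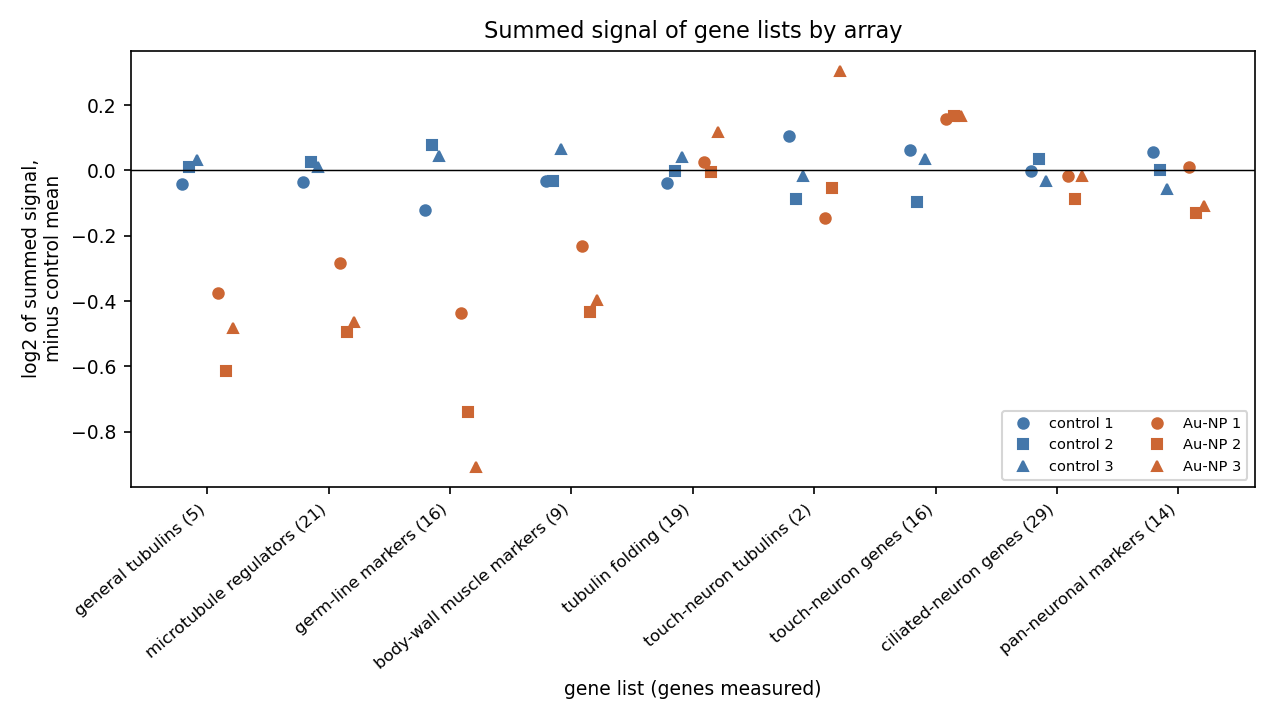
Log2 of the summed signal of 9 gene lists on each array (1 probe set per gene), minus the mean of the 3 controls, with control arrays in blue and Au-NP arrays in orange. General tubulins, microtubule regulators, germ-line and body-wall muscle markers lie below the controls on all 3 Au-NP arrays, touch-neuron genes lie above them on all 3, and brighter genes weigh more in each sum.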

How the data were processed

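The authors deposited 1 log2 value for each probe set on each array. RMA and Partek 6.4 are named in the submitters' processing notes, with no role given for the latter. The array's genome build is not given in the sources used here. RMA quantile-normalizes the arrays together and compresses small signals. Of 22625 probe sets, 77 Affymetrix controls were left out. The platform annotation gave 20766 of the 22548 tested probe sets 1 symbol. A limma model (version 3.58.1, R 4.3.3) with the group as its only term gave Au-NP minus control for every probe set. Its two-sided p-values were adjusted by Benjamini-Hochberg over all of them, with a threshold of 0.05. The SE and 95% intervals are those of this moderated fit, and SDs are over the 3 arrays of a group. Between 4 and 15 values were identical in any 2 arrays, so no array was a copy of another. Each array counted as a sample, though this check cannot tell separate cultures from technical repeats. On simulated data for this comparison, with the spread of the 22548 probe sets, 37.6% of changes of 0.5 log2 units and 97.6% of changes of 1 were recovered, with 12.2 false calls per run. Each run had independent noise and 200 changed probe sets, against 2689 called in these data. The adjustment depends on that number, so the recovery need not hold here.

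The members, the gene lists and the correction for gene span were chosen with earlier results of these data known. Named genes were the members, up to 4 genes of each list past the threshold with the smallest p (or the 1 with the smallest p), and the 5 genes most like tbb-2 and mec-7. List medians use the brightest probe set of each gene, and a gene counted as lower or higher by any of its probe sets. Of the list genes, ebp-1, ebp-3, ttll-9, ift-20, spe-42, fer-14 and opt-2 had no probe set of their own. Alternatives were the replicate number as a block, each array left out, another quantile normalization, median centring, a filter at the median level, array weights, trended and robust variances, and removal of each array's trend with gene span.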

Additional observations from a re-analysis of the deposited data

How the results depend on the processing

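The 6 tubulin probe sets that were lower stayed at 6 after median centring, another quantile normalization, the filter at the median level, array weights, trended and robust variances, and the correction for gene span, and 0 were higher in any setting. With single arrays left out the count ran from 3 to 6. The replicate numbers were not taken as pairs in the main fit. The correlations of deviations from the group means were -0.33, 0.43 and 0.22 for replicates 1, 2 and 3, and not every array correlated best with its own number. With 3 arrays a group this check cannot exclude that equal numbers shared a batch. With the replicate block 4 probe sets were lower, and tba-1 and tbb-1 missed the threshold (limma adjusted p = 0.0608 and 0.0621). Among the members that never passed, the tbb-4 difference ran from -0.10 to 0.12 with single arrays left out, turned in sign without control replicate 2 (-0.10) or Au-NP replicate 3 (-0.07), and was -0.024 with array weights and -0.047 with the span correction. That of the brighter mec-7 probe set ran from -0.011 without Au-NP replicate 3 to 0.32 without Au-NP replicate 1. With single arrays left out, mec-12 ran from -0.23 to -0.09 and the dimmer mec-7 probe set from -0.16 to -0.04. The shift of general minus touch-neuron tubulins was -0.31 with the mean of all probe sets of a gene, -0.46 with the span correction, and from -0.52 to -0.32 with single arrays left out. The groups no longer overlapped with the span correction, without control replicate 1 or without Au-NP replicate 1. For the related lists, settings applied after seeing the data gave from 4 to 9 lower microtubule regulators, 5 to 9 lower germ-line markers and 4 to 6 lower muscle markers with single arrays left out. The 23 genes named from lists for passing kept their call in 249 of 297 combinations of gene and setting, with 0 reversed. Why calls were lost was not tested. The cause of the sign changes was not tested. With no detection calls at hand, whether a dim probe set was above background is open to doubt.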
